A study of Homo sapiens with 20 samples.

Results

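The exons described here are the skipped-exon events of HepG2 cells, an established human liver cancer line, as measured in control libraries alone. The study compared exon skipping after depletion of factors tied to 2′-O-methylation of RNA with controls, and its 20 samples fell into 8 groups, of which the 3 control groups with splice junction counts were used. The siCtrl2 set was 3 libraries from cells given a control siRNA with a lipid reagent for siRNA and harvested in TRIzol after 48 h. The GFP ASO set was 3 libraries from cells given an antisense oligonucleotide against GFP, a jellyfish fluorescent protein, with another lipid reagent and harvested after 72 h. The siCtrl input set was 2 libraries from cells given another control siRNA for 48 h. They were made from the input of an RNA immunoprecipitation, that is, from RNA recovered after proteinase K from a detergent lysate. The siCtrl2 and GFP ASO RNA was selected for poly(A) tails, while poly(A) selection of the input RNA was not stated. All libraries came from the same line, no control was aimed at a factor under study, and the labels number the libraries of a set as replicates. The p-values rest on the spread between these libraries, which in the test of single events is a spread shared across events. GFP ASO differed from siCtrl2 in control molecule, reagent, harvest time and event table. At the same harvest time, siCtrl input differed from siCtrl2 in control siRNA, RNA preparation and event table. Within either comparison these cannot be told apart as sources of a difference.

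An event is an internal exon with its upstream and downstream splice sites. Events of the 3 tables were taken as the same when chromosome, strand, exon start, exon end, upstream exon end and downstream exon start were identical, and were kept when the control libraries held a mean of 10 or more junction reads per library in every table compared. By this rule 3885 events, in 3726 exons of 2511 genes, were shared by all 3 control sets, of 38587 distinct events in the tables and 33818 that reached 10 control reads in at least 1 table. Pairwise, 12396 events matched between siCtrl2 and GFP ASO, 4077 between siCtrl2 and siCtrl input, and 4622 between GFP ASO and siCtrl input. Of the 2511 genes, 1702 had a single shared event and 60 had 5 or more.

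A cassette exon is spliced in when the sites at both of its ends are joined to the neighbouring exons, and it is skipped when the neighbours are joined to each other. Inclusion can add a protein segment, change an untranslated region, or, in a poison exon, bring in a stop codon that sends the transcript to nonsense-mediated decay (NMD). Liver cells are known for secreted proteins whose form depends on such exons, and splicing factors are known to set their own levels through poison exons. The inclusion level used throughout is the share of the inclusion form among both forms after scaling for the number of junction positions of each, from 0 (always skipped) to 1 (always included). In bulk RNA, a level between these ends cannot be told apart as a mixture within each cell or a mixture of cells.

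Depth differed between the sets. The siCtrl2 libraries held 2896651 to 4474350 junction reads over all events, the GFP ASO libraries 11249641 to 13189400, and the siCtrl input libraries 910779 and 1142189, so single events were measured least precisely in the input set. Shared events took about 37% of the reads in siCtrl2, 25% in GFP ASO and 74% in siCtrl input, and 3817 of them had reads in all 8 libraries. Every event of a table had reads of both forms over its control and depletion libraries. The skipping form could therefore come from depletion libraries alone, and exons skipped in neither group are missing from that table. Skipping reads were 0 in the control libraries for 5484 of 19792 events in the siCtrl2 table. The same held for 12067 of 32990 in the GFP ASO table and 2183 of 7065 in the siCtrl input table. Of the 3885 shared events, 49 had a level of 1 in every control library. Events of 13, 13 and 12 of 14 hepatocyte markers, among them ALB, AFP, APOB and HNF4A, held 11.7% to 11.8%, 13.4% to 13.6% and 18.3% to 18.5% of the junction reads of a library in siCtrl2, GFP ASO and siCtrl input. Of 9 markers of other cell types only LYZ, the gene of lysozyme, had an event in all 3 tables, and PECAM1 had one in the GFP ASO table, together 0.68% to 0.771%, 0.206% to 0.231% and 1.14% to 1.18% of the reads. These marker shares are of reads at the events that each table lists, and the lists differ, so the shares cannot be compared between sets. A gene without an event was not measured, which held for the hepatocyte marker FGB in all 3 tables, so a missing event does not show a missing transcript. LYZ exon 2 carried a mean of 14158, 16445 and 7220 reads per library and was included at a level of 0.999 or more in all 8 libraries.

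Most shared exons were spliced in. The mean inclusion level over the 3817 events was 0.725, 0.722 and 0.724 in the siCtrl2 libraries, 0.744, 0.742 and 0.741 in the GFP ASO libraries, and 0.722 and 0.727 in the siCtrl input libraries. The GFP ASO libraries lay above all others, and the input libraries lay on either side of siCtrl2. GFP ASO (0.742 ± 0.0013, SD, n = 3) exceeded siCtrl2 (0.724 ± 0.0018, SD, n = 3) by 0.0185, with p = 0.1 in an exact two-sided permutation test, the smallest value that 3 against 3 libraries allow. With 3 against 2 libraries the smallest value is 0.2, which the difference of -0.0177 between siCtrl input and GFP ASO reached (exact permutation test), while siCtrl input and siCtrl2 differed by 0.000797 (p = 0.8, exact permutation test). These tests cannot reach 0.05, and depth differed between the sets in the same comparisons.

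Levels piled up at both ends of the scale. In each library 54.1% to 57.7% of events had a level of 0.9 or more, termed mostly included, 11.03% to 14.8% had a level of 0.1 or less, termed mostly skipped, and 27.5% to 34.0% lay between, termed intermediate. Mostly skipped events made up 11.03% to 11.08% of events in the GFP ASO libraries, 13.4% to 13.8% of the siCtrl2 libraries and 14.0% and 14.8% of the input libraries. The GFP ASO share stood at -2.52 percentage points from that of siCtrl2 without overlap (p = 0.1, exact permutation test). Skipping reads were 11.4% of all reads at the shared events in each siCtrl2 library, 10.1% to 10.4% in GFP ASO, and 9.09% and 9.12% in siCtrl input. This order was weighted by reads, and abundant transcripts count most in it. Over the 3174 events with 10 or more reads in every library, the skipping share of siCtrl input was -2.18 percentage points from siCtrl2 and -1.12 from GFP ASO. When each of these events was thinned to 10 reads in each library, so that all counted alike, the skipping share of siCtrl input exceeded that of siCtrl2 by 0.261 and that of GFP ASO by 1.84 percentage points.

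**Figure D1:**
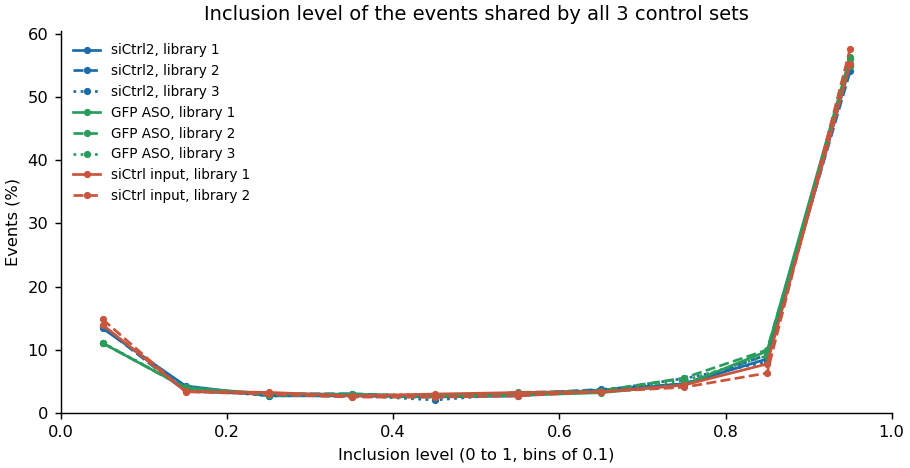
Percentage of shared events (y axis) by inclusion level in bins of 0.1 (x axis) for each of the 8 control libraries, over the 3817 events with reads in all of them. All libraries have their highest point in the top bin (54.1% to 57.7%) and a lower one in the bottom bin, where the GFP ASO libraries sit lowest at 11.03% to 11.08%.

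By the mean of each set, 1529 of the 3885 events (39.4%) were mostly included in all 3 sets, 767 (19.7%) were intermediate in all 3, and 323 (8.31%) were mostly skipped in all 3. The class changed between sets for 1266 events (32.6%). Switches across the whole scale were rare: no event was mostly included in one and mostly skipped in the other of siCtrl2 and GFP ASO, and 2 events were in each comparison with siCtrl input. These were exons of COX10, an assembly factor of the respiratory chain, in both comparisons, MLLT10 against siCtrl2 and GPBP1 against GFP ASO, named after their values were seen. COX10 had a level of 1 in all siCtrl2 and GFP ASO libraries and 0 in both input libraries, where it rested on 10 and 12 reads. The MLLT10 value rested on 1 input library with 23 reads, because the other had none, and GPBP1 rested on 18 and 12 input reads.

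Set means agreed more closely with more reads. Across the shared events, Pearson's r was 0.958 between siCtrl2 and GFP ASO, 0.905 between siCtrl2 and siCtrl input and 0.909 between GFP ASO and siCtrl input, with Spearman's rho of 0.859, 0.734 and 0.736. Events are not independent replicates, and these values describe the tables without a test. The mean absolute difference in level was 0.0613, 0.0940 and 0.0912. For the 919 events with 10 to 20 reads per library in the shallowest set, 64.3%, 46.0% and 47.4% of events agreed within 0.1, and for the 150 events with 500 or more reads, 97.3%, 98.7% and 97.3% did. At that depth r was 0.991, 0.997 and 0.989.

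**Figure D2:**
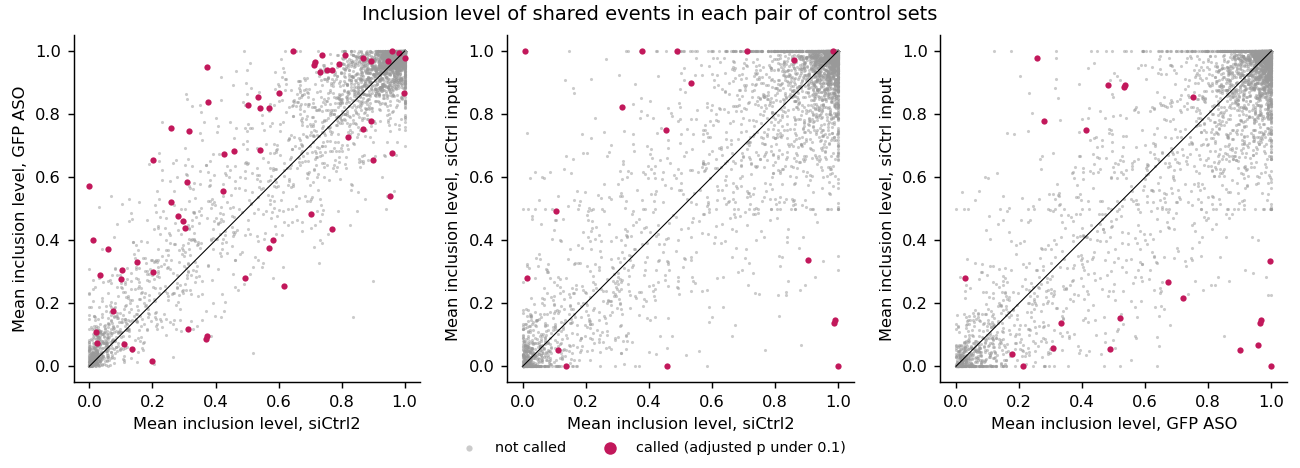
Mean inclusion level of each of the 3885 shared events in one control set (x axis) against another (y axis), for the 3 pairs of sets, with the line of equality. Grey points are events that were not called and red points are events called at an adjusted p under 0.1. Points gather at both ends of the line, and the scatter is wider in both panels with siCtrl input, the shallowest set.

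Differences between sets were set against differences between libraries of 1 set. Over the 3174 events with 10 or more reads in every library, 2 siCtrl2 libraries differed by a mean absolute 0.0702 to 0.0725 in level and 2 GFP ASO libraries by 0.0520 to 0.0533, whereas a siCtrl2 and a GFP ASO library differed by 0.0689 to 0.0755. A siCtrl2 library thus stood about as far from a GFP ASO library as from another siCtrl2 library. A GFP ASO library, by contrast, stood farther from every siCtrl2 library than from another GFP ASO library, also with the thinned events below. The 2 input libraries differed from each other by 0.123, more than either differed from any siCtrl2 or GFP ASO library (0.0917 to 0.1099). With each event thinned to 10 reads in each library the values were 0.0948 to 0.0952 within siCtrl2, 0.0827 to 0.0887 within GFP ASO, 0.0934 to 0.100 between them, 0.133 within siCtrl input, and 0.1095 to 0.119 between input and the others. At equal depth the pair of input libraries was still the farthest apart. The input set has 1 pair of libraries only, so its spread is known from a single value.

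**Figure D3:**
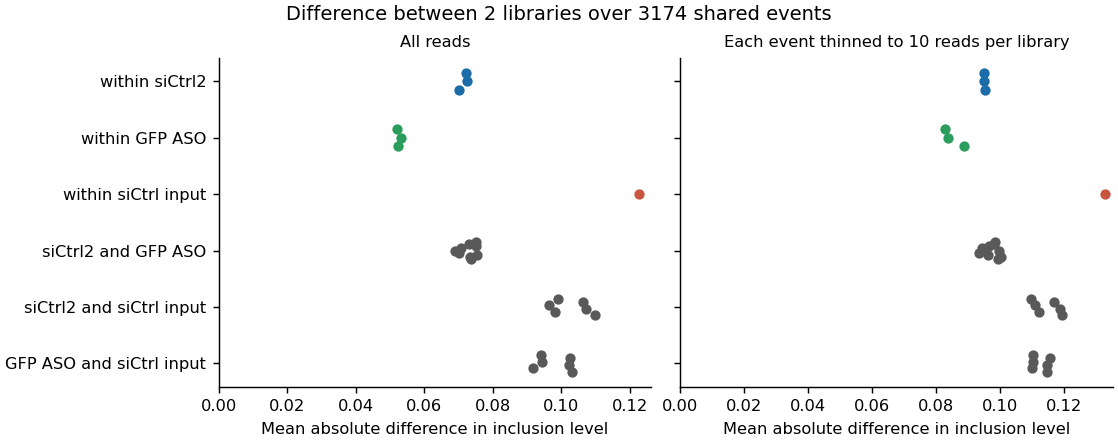
Mean absolute difference in inclusion level (x axis) between 2 libraries, 1 point per pair of libraries, over the 3174 shared events with 10 or more reads in all 8 libraries, with all reads (left) and with each event thinned to 10 reads per library (right). Pairs of siCtrl2 and GFP ASO libraries overlap the pairs within siCtrl2 in both panels and lie right of the pairs within GFP ASO. The single pair of input libraries lies farthest right.

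Exon length, reading frame and annotation differed between the classes. The 74 events with exons of up to 30 bases, termed microexons, had mean levels of 0.498 ± 0.0122 in siCtrl2 (SD, n = 3), 0.547 ± 0.0021 in GFP ASO (SD, n = 3) and 0.470 ± 0.0372 in siCtrl input (SD, n = 2). For comparison, the 1494 events with exons over 30 and below 100 bases had 0.703, 0.732 and 0.702. Of the microexon events 35.1% were intermediate in all sets, against 19.7% of all shared events. Exons whose length was a multiple of 3, which keep the reading frame when skipped, made up 59.1% of the exons intermediate in all sets, 45.6% of those mostly included, 46.1% of those mostly skipped and 49.5% of all. Annotation followed GENCODE release 44. Exons in coding sequence made up 96.7% of the mostly included, 74.8% of the intermediate and 39.9% of the mostly skipped exons. The 240 events whose exon occurs only in noncoding or NMD transcripts had mean levels of 0.283 ± 0.0059, 0.321 ± 0.0035 and 0.316 ± 0.0122 in the same order of sets. The 335 events with exons in untranslated regions had 0.407, 0.438 and 0.408. These shares depend on which exons the tables list, and they are given without a test.

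Splice site letters were counted in each class, without a test. On the strand of the gene, the intron after the exon began with GTAAG, the letters that pair best with U1 small nuclear RNA, in 25.4% of the mostly included, 22.1% of the intermediate and 18.3% of the mostly skipped exons, and in 23.8% of all. It began with GC in place of GT in 0.797%, 1.89% and 2.17%, and in 1.21% of all. The last 3 exon bases before it were CAG in 21.6%, 26.6% and 28.2%, and in 23.8% of all. The classes thus stood in the opposite order for CAG and for GTAAG. Pyrimidines made up 75.1%, 73.8% and 73.9% of the 18 bases before the AG at the 3′ site. The intron before the exon had a median length of 2142.5, 2222 and 1718 bases.

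Few events were called between the sets by a test that uses the shared spread of the libraries. A quasi-binomial test of inclusion against skipping reads, with the dispersion moderated by limma, called 77 of the 12396 events matched between GFP ASO and siCtrl2 at an adjusted p under 0.1 (0.621%), 54 with a higher level in GFP ASO (0.436%) and 23 with a lower one (0.186%). Between siCtrl input and siCtrl2 it called 18 of 4077 (0.442%), 11 higher (0.27%) and 7 lower (0.172%) in the input. Between siCtrl input and GFP ASO it called 22 of 4622 (0.476%), 8 higher (0.173%) and 14 lower (0.303%) in the input. An unadjusted p under 0.05 was reached by 745 (6.01%), 261 (6.4%) and 291 (6.3%) events. The moderation gave every event the shared dispersion, a median of 5.95, 5.77 and 6.63 times binomial sampling, so an event's own spread did not enter. With the larger of the shared and the event's own dispersion, a setting added after the data were seen, 41, 9 and 8 events were called. Limma on the log2 odds of inclusion, with a variance trend, gave an unadjusted p under 0.05 for 1747 of 12396, 439 of 4077 and 845 of 4622 events. These counts were higher than those of the quasi-binomial test over the same events. After adjustment limma called 0 events in each comparison. No called exon described below was therefore called by every method. The called events between siCtrl2 and GFP ASO lay in 66 genes and had a median absolute difference of 0.213, and 56 of the 77 events had an exon annotated as coding. Of all shared events 82.2% had one, but only 64 of the 77 called events were among the shared events. The coding share of the 12396 events tested is not given here, so the called events cannot be set against it.

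Called exons were described by the smallest p in each comparison among those with a difference of at least 0.1 and no overlap of the libraries, 1 per gene, at most 6 per comparison. There were 56 such events between siCtrl2 and GFP ASO (0.452%), 15 between siCtrl2 and siCtrl input (0.368%) and 21 between GFP ASO and siCtrl input (0.454%). Libraries did not overlap in 8.87% of events between siCtrl2 and GFP ASO, 17.4% between siCtrl2 and siCtrl input and 21.6% between GFP ASO and siCtrl input. The splice sites of the exons described here that kept a call in every quasi-binomial setting tried are shown first, since fewer choices of processing enter these differences. Each 3′ site has the last 20 intron bases and 3 exon bases, each 5′ site has 3 exon bases and 6 intron bases, on the strand of the gene, read from hg38, and capitals mark the intron's end and start. For GNAS the start of the next exon is shown as well, with both of its acceptors in capitals.
FN1 EDA exon, 3′ site: accattaatttgcctaacAGaca
FN1 EDA exon, 5′ site: cagGTatat
GNAS exon 3, 3′ site: tttcaatctctctttaaaAGggg
GNAS exon 3, 5′ site: tggGTaggc
GNAS exon after exon 3, both acceptors: ttttcttttcaatcccacTGcAGtga
PEG3 exon, 3′ site: catatgtaccttattcatAGgtg
PEG3 exon, 5′ site: aagGTagct
PROS1 exon, 3′ site: ttatattgttttctttatAGttt
PROS1 exon, 5′ site: gctGTaagt
Of these 4 exons, only PROS1 has GTAAG at its 5′ site.

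FN1 encodes fibronectin, a matrix and plasma protein, and its exon 33, known as extra domain A (EDA), encodes a repeat that the plasma form made by liver lacks. This coding exon of 270 bases (chr2:215380811-215381080, minus strand, hg38) had levels of 0.854, 0.873 and 0.879 in siCtrl2, 0.744, 0.753 and 0.758 in GFP ASO, and 0.848 and 0.859 in siCtrl input. All GFP ASO libraries lay below the other 5, whose values overlapped. The difference of GFP ASO from siCtrl2 was -0.117 (quasi-binomial adjusted p = 7.5e-56), that of siCtrl input from GFP ASO was 0.102 (quasi-binomial adjusted p = 2.6e-28), and that of siCtrl input from siCtrl2 was -0.0150 (quasi-binomial adjusted p = 0.71). Each set had a mean of 17065 or more reads per library at this exon, and both calls were kept in every quasi-binomial setting, with adjusted p up to 0.055 for the first difference and 1.1e-14 for the second. Over all settings, limma on log odds included, adjusted p reached 0.48 and 0.55.

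The companion exon of FN1, extra domain B (exon 25, 273 bases, chr2:215392931-215393203), was included in few transcripts and is named after its values were seen. Its mean level was 0.111 in siCtrl2, just above the limit for mostly skipped exons, and below that limit in the other sets. Its levels were 0.112, 0.124 and 0.0976 in siCtrl2, 0.0717, 0.0722 and 0.0657 in GFP ASO, and 0.0570 and 0.0443 in siCtrl input. Each siCtrl2 library exceeded each of the others. GFP ASO differed from siCtrl2 by -0.0413 (quasi-binomial adjusted p = 1.2e-09) and siCtrl input by -0.0605 (quasi-binomial adjusted p = 1.8e-08). Both calls were lost with the event's own dispersion (adjusted p = 0.35 and 0.84), and over all settings adjusted p ran from 9e-10 to 0.66 and from 3.5e-09 to 0.84. Thus EDA was included in most and EDB in few of the FN1 transcripts in each set.

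GNAS encodes the stimulatory G protein alpha subunit, whose long and short forms differ by exon 3 (45 bases, chr20:58898941-58898985, plus strand), which keeps the reading frame. This exon appeared in 2 shared events, with next exons that start 3 bases apart, from the TG and from the AG shown above. They share an upstream junction and are not independent. In the event with the TG acceptor, levels were 0.121, 0.152 and 0.182 in siCtrl2, 0.309, 0.319 and 0.367 in GFP ASO, and 0.154 and 0.120 in siCtrl input. In the event with the AG acceptor they were 0.550, 0.554 and 0.522, then 0.700, 0.675 and 0.679, then 0.553 and 0.544. In both events each GFP ASO library exceeded the other 5. GFP ASO exceeded siCtrl2 by 0.180 (quasi-binomial adjusted p = 3e-14) with the TG acceptor and by 0.143 (quasi-binomial adjusted p = 6.9e-05) with the AG acceptor. The second call was kept in every quasi-binomial setting (adjusted p up to 0.014, and 0.59 with limma), whereas the first was lost with the event's own dispersion (adjusted p = 0.27, range over all settings 7.9e-15 to 0.40). The siCtrl input level with the TG acceptor was -0.194 from GFP ASO (quasi-binomial adjusted p = 2.5e-06, and 0.85 with the event's own dispersion, range over all settings 3.8e-07 to 0.85). With the AG acceptor it was -0.136 from GFP ASO, which was not called (quasi-binomial adjusted p = 0.2).

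PEG3, an imprinted gene of a zinc finger protein, had the most shared events of any gene, 18 in all. Its untranslated exon of 121 bases (chr19:56833643-56833763, minus strand) had levels of 0.0776, 0.0800 and 0.148 in siCtrl2, 0.326, 0.313 and 0.278 in GFP ASO, and 0.0314 and 0.0828 in siCtrl input. Again the GFP ASO libraries lay above the rest. The difference from siCtrl2 was 0.204 (quasi-binomial adjusted p = 6.6e-06) and was called in every quasi-binomial setting, with adjusted p up to 0.015, and up to 0.33 with limma.

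PROS1, the gene of the anticoagulant protein S, has an exon of 96 bases in 1 coding transcript (chr3:93928702-93928797, minus strand). It had levels of 0.143, 0.0922 and 0.172 in siCtrl2, 0.159, 0.182 and 0.293 in GFP ASO, and 0.00305 and 0 in siCtrl input, where 2 inclusion reads stood against 397 skipping reads in one library and 0 against 270 in the other. The input libraries lay below all others. The difference of siCtrl input from siCtrl2 was -0.134 (quasi-binomial adjusted p = 8.5e-05) and was called in every quasi-binomial setting, with adjusted p up to 0.027, and up to 0.35 with limma. That from GFP ASO was -0.210 (quasi-binomial adjusted p = 2e-09, but 0.92 with the event's own dispersion, range over all settings 1.3e-10 to 0.92).

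Other exons that differed between siCtrl2 and GFP ASO depended on the treatment of spread. The untranslated exon 2 of RRBP1, a ribosome-binding protein of the endoplasmic reticulum, had levels of 0.261, 0.251 and 0.268 in siCtrl2, 0.474, 0.521 and 0.564 in GFP ASO, and 0.149 and 0.159 in siCtrl input. The 3 sets did not overlap, and GFP ASO differed from siCtrl2 by 0.260 (quasi-binomial adjusted p = 1e-13) and siCtrl input from GFP ASO by -0.366 (quasi-binomial adjusted p = 4.1e-18). Both calls were lost with the event's own dispersion (adjusted p = 0.25 and 0.59), and ranged from 3.4e-15 to 0.37 and from 4.9e-20 to 0.59 over all settings. The coding exon 6 of NSMF had 0.613, 0.244 and 0.0869 in siCtrl2, 0.722 to 0.775 in GFP ASO, and 0.783 and 0.862 in siCtrl input. The siCtrl2 libraries were far apart, and all lay below both other sets. The call of NSMF between GFP ASO and siCtrl2 (quasi-binomial adjusted p = 3.4e-06) was lost with its own dispersion (adjusted p = 1, lowest over all settings 1.9e-07). In NSMF siCtrl input was also called against siCtrl2 (0.508, quasi-binomial adjusted p = 0.027), but not against GFP ASO. A poison exon of HNRNPDL, a nuclear RNA-binding protein, had 0.115, 0.163 and 0.318 in siCtrl2 and 0.0123 to 0.0287 in GFP ASO (quasi-binomial adjusted p = 6.2e-06, range over all settings 3.5e-06 to 0.65, lost with its own dispersion). Its input libraries, with 16 and 18 reads, stood at 1 and 0.105.

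Exons that differed in siCtrl input rested on few libraries. RNPS1 exon 2, in a gene of the exon junction complex, had levels of 0.894 to 0.922 in siCtrl2, 0.712 to 0.795 in GFP ASO, and 0.302 and 0.373 in siCtrl input. SPATS2L exon 7 had 0.449 to 0.462 in siCtrl2, 0.372 to 0.474 in GFP ASO, and 0.807 and 0.694 in siCtrl input. ASGR1 exon 3, in a subunit of the hepatocyte asialoglycoprotein receptor, had 0.842 to 0.874, 0.902 to 0.940, and 0.973 and 0.970. The input libraries of these 3 exons lay outside both other sets, with differences from siCtrl2 of -0.569, 0.296 and 0.111 (quasi-binomial adjusted p = 0.0017, 0.0017 and 0.011). Without siCtrl input library 1 the adjusted p was 0.37, 0.25 and 0.15, and without siCtrl2 library 2 that of ASGR1 was 0.19. Over all settings the adjusted p ran from 0.0018 to 0.37, from 0.0016 to 0.53 and from 0.0074 to 0.44. SPATS2L also differed between siCtrl input and GFP ASO, by 0.337 (quasi-binomial adjusted p = 0.00016, 0.21 without siCtrl input library 1, range over all settings 3.6e-05 to 1).

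For the remaining 3 exons called with siCtrl input by the same choice, libraries of a set were themselves apart. SLC2A8 exon 3, in a sugar transporter gene, had 0.398, 0.208 and 0.527 in siCtrl2, 0.754 to 0.918 in GFP ASO, and 1 in both input libraries. All siCtrl2 libraries lay below both other sets. The exon was also called between GFP ASO and siCtrl2 (0.460, quasi-binomial adjusted p = 0.0059), but not between siCtrl input and GFP ASO (quasi-binomial adjusted p = 0.85). The poison exon of SAT1, an enzyme of polyamine breakdown, had 0.103, 0.105 and 0.111 in siCtrl2 and 0.135 to 0.208 in GFP ASO, but 0.847 in one input library and 0.140 in the other. Without the first of these, the difference of siCtrl input from siCtrl2 was 0.0336 in place of 0.387 (quasi-binomial adjusted p = 1 in place of 0.020), and it was also lost without siCtrl2 library 2 (adjusted p = 0.16, range over all settings 6.4e-05 to 1). SLC2A8 (quasi-binomial adjusted p = 0.0017) was lost without siCtrl2 library 2 (0.25) and without siCtrl input library 1 (0.17), with a range of 0.0018 to 1. FDPS exon 2, in a gene of the mevalonate pathway, had 0.441 to 0.557 in siCtrl2, 0.231 to 0.309 in GFP ASO, and 0.669 and 0.889 in siCtrl input. GFP ASO lay below both other sets and was also called against siCtrl2 (-0.213, quasi-binomial adjusted p = 0.025). The calls of SLC2A8 and FDPS between GFP ASO and siCtrl2 were not followed event by event over the other settings. For FDPS the difference of siCtrl input from GFP ASO was 0.499 (quasi-binomial adjusted p = 0.00078, 0.39 without siCtrl input library 2, range over all settings 0.00021 to 1).

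**Figure D4:**
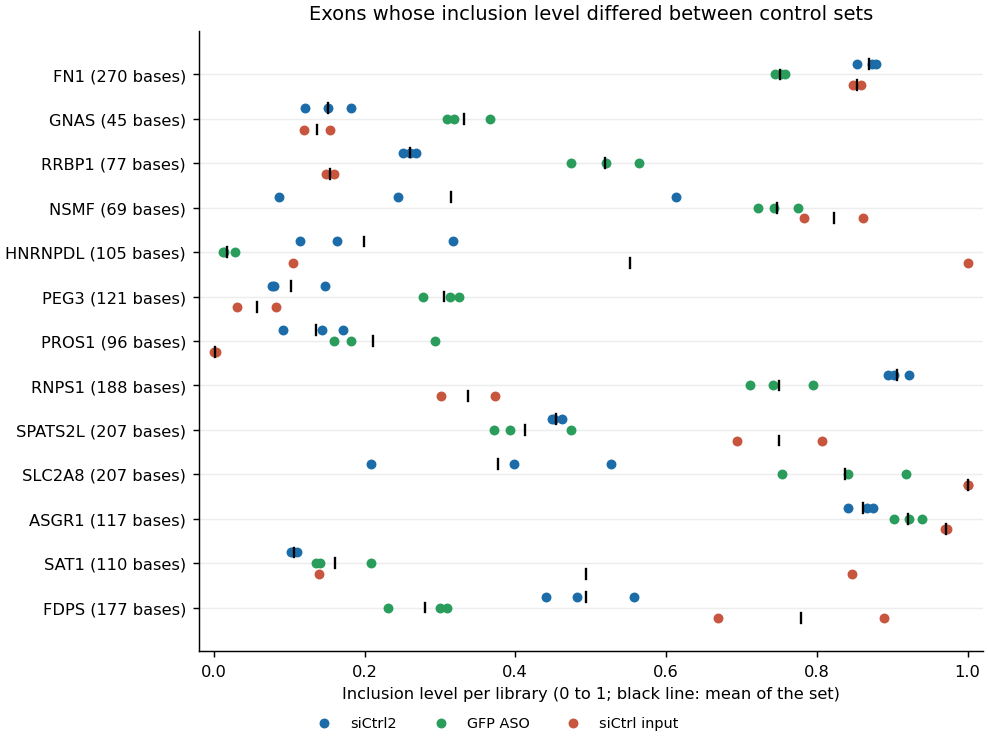
Inclusion level (x axis, 0 to 1) in each control library, 1 point per library, for the 13 exons described by the smallest p in any comparison of control sets, with the mean of each set as a black line and exon length in brackets. GNAS is shown for the event with the TG acceptor. GFP ASO stands apart from the other sets for FN1, GNAS, RRBP1 and PEG3, and the input libraries are split for HNRNPDL and SAT1.

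Exons with a mean level between 0.2 and 0.8 in every set show which pairs of isoforms HepG2 cells make side by side. There were 377 such events in 314 genes. Of the 8 with the most reads, 1 per gene, the splice sites of 4 that were not called in any comparison are shown as examples of exons that are often but not always joined, with capitals as above.
APLP2 exon 7, 3′ site: ctctgaccattttcacacAGctg
APLP2 exon 7, 5′ site: tgaGTaagt
APP exon 8, 3′ site: ttctcttattttttccatAGtgt
APP exon 8, 5′ site: aacGTacgt
SERPINA5 exon 2, 3′ site: aaggagtctcatctctgcAGttt
SERPINA5 exon 2, 5′ site: tagGTaaga
RBM39 poison exon, 3′ site: ccatctatctctctttgtAGact
RBM39 poison exon, 5′ site: aagGTagta

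APLP2, a relative of the amyloid precursor protein, has a Kunitz protease inhibitor domain encoded by exon 7 (168 bases, chr11:130123612-130123779, plus strand). It was skipped in most transcripts, with levels of 0.253, 0.317 and 0.311 in siCtrl2, 0.263, 0.229 and 0.220 in GFP ASO, and 0.276 and 0.252 in siCtrl input. All 3 sets overlapped. In APP itself, exon 8 (57 bases, chr21:25997360-25997416, minus strand) had 0.478, 0.446 and 0.377, then 0.463, 0.316 and 0.406, then 0.325 and 0.349. The input libraries lay below all siCtrl2 libraries, by a mean of -0.0964 that was not called (quasi-binomial adjusted p = 0.66).

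SERPINA5, a liver-made inhibitor of serine proteases, has an untranslated exon 2 (96 bases, chr14:94581615-94581710, plus strand) with levels of 0.699, 0.647 and 0.671 in siCtrl2, 0.739, 0.689 and 0.690 in GFP ASO, and 0.677 and 0.611 in siCtrl input. The siCtrl2 libraries overlapped those of both other sets. A poison exon of the splicing factor RBM39 (73 bases, chr20:35740525-35740597, minus strand), found in 9 NMD transcripts and no coding one, had 0.187, 0.275 and 0.188, then 0.315, 0.286 and 0.301, then 0.312 and 0.435. Every siCtrl2 library lay below the others, and neither difference from siCtrl2 was called (0.0839 and 0.157, quasi-binomial adjusted p = 0.31 and 0.29).

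The other members of these 8 were GNAS with the AG acceptor and SPATS2L, given above, PCBP2 and ASPH. PCBP2 exon 11, in a poly(C)-binding protein, had set means of 0.594 ± 0.0231 (SD, n = 3), 0.689 ± 0.0622 (SD, n = 3) and 0.599 ± 0.0123 (SD, n = 2). ASPH exon 6, in an aspartyl hydroxylase gene, had 0.754 ± 0.0179 (SD, n = 3), 0.714 ± 0.0429 (SD, n = 3) and 0.727 ± 0.124 (SD, n = 2). Neither was called in any comparison. Of the 767 events intermediate in all sets, 187 (24.4%) had set means within 0.1 of one another.

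The most covered of the 323 mostly skipped events were low in every library. GPC3, the gene of glypican-3, had an exon of 69 bases at 0.00697 to 0.0135 in siCtrl2, 0.00659 to 0.0105 in GFP ASO, and 0.00915 and 0.00997 in siCtrl input. RPN2, a subunit of the oligosaccharyltransferase, had an exon of 48 bases at set means of 0.0196, 0.0167 and 0.0200. NACA, a ribosome-associated chaperone subunit, had one of 60 bases at 0.00136, 0.00151 and 0.00171. SELENOP, a liver selenoprotein, had an untranslated exon of 88 bases at 0.0174, 0.0188 and 0.0157. These 4 exons overlapped between all sets. An APLP2 exon of 36 bases had 0.0437 ± 0.00286 (SD, n = 3), 0.0329 ± 0.000504 (SD, n = 3) and 0.0230 ± 0.00181 (SD, n = 2) without overlap, and was not called in any comparison.

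Among 40 hepatocyte genes, 22 had 50 shared events, of which 43 (86%) were mostly included in all sets, 2 were intermediate, none was mostly skipped and 5 changed class. Over all shared events 39.4% were mostly included. These 2 shares were not taken at equal depth, and the part of depth in them was not tested. Between siCtrl2 and GFP ASO 5 of 87 hepatocyte events were called (5.75%, against 0.621% of all events tested), 1 higher and 4 lower in GFP ASO, and the median absolute difference of 0.00176 was below the 0.0247 over all events. Besides both FN1 exons these were AHSG, and AFP and SERPINA1, which are named after their values were seen. Mean reads per library in the shallower set were 17065 and 4465 for FN1, 20905 for AFP, 5844 for AHSG and 382 for SERPINA1. Their median was 243 over all called events of this comparison. The called shares were not taken at equal depth either, here or in the gene lists below, and the part of depth in the higher shares was not tested. AHSG exon 6, in the gene of fetuin-A, had 0.937, 0.941 and 0.959 in siCtrl2, 0.969, 0.970 and 0.964 in GFP ASO, and 0.959 and 0.955 in siCtrl input. AFP exon 8, in the gene of alpha-fetoprotein, had 0.969, 0.971 and 0.977 in siCtrl2 against 0.960, 0.962 and 0.962 in GFP ASO. These calls were of differences of 0.0217 and -0.0109 (quasi-binomial adjusted p = 0.022 and 0.074) at 3794 or more reads per library, and were lost with the event's own dispersion (adjusted p = 1 and 0.11) and without siCtrl2 library 1 (0.31 and 0.14) or 2 (0.74 and 0.37). That of AFP was also lost without siCtrl2 library 3 (0.82) and without GFP ASO library 1 (0.15) or 2 (0.12). Over all settings they ran from 0.0084 to 1 and from 0.065 to 0.82. The SERPINA1 event lay on an alternate contig and rested on 1 GFP ASO library at 0.665, with the other GFP ASO libraries at 0.992 and 1 (quasi-binomial adjusted p = 0.0059, 1 without that library, 0.29 without siCtrl2 library 2, 0.10 without siCtrl2 library 3, range over all settings 0.00019 to 1). With siCtrl input, 2 of 51 events were called against siCtrl2 (FN1 EDB and ASGR1), or 3.92% against 0.442% of all events tested, and 1 of 57 against GFP ASO (FN1 EDA), or 1.75% against 0.476%. ASGR2 exon 3, the counterpart of ASGR1 exon 3, had set means of 0.893 ± 0.0675 (SD, n = 3), 0.903 ± 0.0453 (SD, n = 3) and 0.959 ± 0.0484 (SD, n = 2), which overlapped.

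Among 40 genes with exons that are known to switch between epithelial and mesenchymal cells, 27 had 57 shared events, with 20 mostly included, 18 intermediate, 5 mostly skipped and 14 that changed class. CEACAM1 exon 7, which sets the long or short tail of this adhesion molecule, had 0.296 to 0.368 in siCtrl2, 0.369 to 0.425 in GFP ASO, and 0.465 and 0.359 in siCtrl input, and was not called. FGFR1 exon 3, which encodes the outermost immunoglobulin-like domain of the receptor, had 0.461 to 0.533, 0.552 to 0.571, and 0.646 and 0.603, and was not called. Between siCtrl2 and GFP ASO 2 of 119 events were called (1.68%, against 0.621% of all events tested), both higher in GFP ASO. One of these was the 45-base exon 18 of the kinase gene MARK2. This exon, named after its values were seen, had 0.780, 0.774 and 0.595, then 1, 0.975 and 0.925, then 0.778 and 0.643. Its call (quasi-binomial adjusted p = 0.060) was lost when any siCtrl2 library or GFP ASO library 1 or 2 was left out (0.16 to 0.38, range over all settings 0.021 to 0.38). With siCtrl input, 0 of 60 events were called against siCtrl2 by the quasi-binomial test or by limma, with 5 at an unadjusted p under 0.05, and 2 overlapping events of CTNND1, the gene of p120 catenin, were called against GFP ASO of 67 (2.99%, against 0.476% of all events tested). The longer of these exons had 0.519 to 0.562 in GFP ASO against 0.781 and 1 in siCtrl input (quasi-binomial adjusted p = 0.055), and the call was lost without siCtrl input library 2 (1) and without GFP ASO library 1 (0.16) or 2 (0.15), with a range of 0.021 to 1.

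Among 50 splicing factor genes, 30 had 52 shared events, of which 14 were mostly included, 14 intermediate, 8 mostly skipped and 16 changed class. Exon 2 of HNRNPA2B1 (36 bases), which distinguishes the B1 from the A2 protein, had 0.194, 0.198 and 0.180 in siCtrl2, 0.224, 0.247 and 0.210 in GFP ASO, and 0.181 and 0.223 in siCtrl input. GFP ASO lay above siCtrl2, and the difference of 0.0366 was not called. A second exon of RBM39 (72 bases) had set means of 0.0795 ± 0.0048 (SD, n = 3), 0.122 ± 0.0147 (SD, n = 3) and 0.0441 ± 0.00231 (SD, n = 2), without overlap and without a call. SF1 exon 3 had set means of 0.943, 0.983 and 0.955, and the SRSF6 poison exon 0.153, 0.0887 and 0.137, also without a call. Between siCtrl2 and GFP ASO 5 of 115 events were called (4.35%, against 0.621% of all events tested), 2 higher and 3 lower in GFP ASO, and 0 of 52 and 0 of 60 were called with siCtrl input by the quasi-binomial test or by limma, with 5 and 7 at an unadjusted p under 0.05.

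These 5 calls were HNRNPDL above and, named after their values were seen, events of HNRNPD, HNRNPC, SRSF2 and RBM5. Mean reads per library in the shallower set were 1178 for HNRNPC, 543 for SRSF2, 534.3 for HNRNPD, 149 for HNRNPDL and 19.7 for RBM5, against a median of 243 over all called events. The share called was not taken at equal depth, and the list was chosen with earlier results of these data known. HNRNPD exon 7, which distinguishes forms of the AU-rich element binding protein AUF, had 0.563, 0.566 and 0.616 in siCtrl2, 0.365, 0.421 and 0.420 in GFP ASO, and 0.563 and 0.694 in siCtrl input. The difference of GFP ASO from siCtrl2 was -0.180 (quasi-binomial adjusted p = 0.0044, 0.11 without siCtrl2 library 2, range over all settings 0.0023 to 0.52). The untranslated exon 2 of HNRNPC, of 26 bases, had 0.850, 0.821 and 0.792, then 0.734, 0.738 and 0.709, then 0.577 and 0.580 (quasi-binomial adjusted p = 0.018 between the first 2 sets, 0.29 without siCtrl2 library 1, 0.34 without siCtrl2 library 2, 0.11 without GFP ASO library 3, range over all settings 0.0082 to 0.64). A poison exon of SRSF2 had 0.0140, 0.0263 and 0.0309, then 0.0601, 0.0920 and 0.0712, then 0.0451 and 0.0425. Its call (quasi-binomial adjusted p = 0.027) was lost without any one siCtrl2 library or GFP ASO library 2 (0.12 to 0.42, range over all settings 0.013 to 0.42). RBM5 exon 8 rested on 7 to 29 siCtrl2 reads per library, at 0.719, 0.184 and 1 (quasi-binomial adjusted p = 0.091), and was lost when any library was left out (0.11 to 1, lowest over all settings 0.091).

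Among 40 genes of lipid, sugar and hormone metabolism, 24 had 50 shared events, with 23 mostly included, 13 intermediate, 3 mostly skipped and 11 that changed class. SCARB1 exon 12, which distinguishes the tails of the high-density lipoprotein receptor, had set means of 0.894 ± 0.0329 (SD, n = 3), 0.942 ± 0.0351 (SD, n = 3) and 0.924 ± 0.107 (SD, n = 2), and the untranslated exon 2 of ACSL3 had 0.965 ± 0.0198, 0.946 ± 0.0570 and 0.996 ± 0.00176. Neither was called. Between siCtrl2 and GFP ASO 4 of 103 events were called (3.88%, against 0.621% of all events tested): both events of GNAS exon 3, which share reads, and exons of ACSL4 and SREBF1, named after their values were seen. The untranslated exon 2 of ACSL4 had 0.889, 0.931 and 0.858, then 0.824, 0.751 and 0.759, then 0.787 and 0.701 (quasi-binomial adjusted p = 0.0037 for GFP ASO against siCtrl2, 0.46 without siCtrl2 library 2, range over all settings 0.00048 to 1). A 90-base exon of SREBF1, a transcription factor of lipid synthesis, had 0.0359, 0.0648 and 0, then 0.192, 0.241 and 0.439, then 0.0755 and 0. Its call (quasi-binomial adjusted p = 0.012) was lost without siCtrl2 library 2 (0.18) or 3 (0.16) and without GFP ASO library 3 (0.14), with a range of 0.0035 to 1 over all settings.

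HMGCS1, an enzyme of cholesterol synthesis named after its values were seen, gave the 2 calls of 51 between siCtrl2 and siCtrl input (3.92%, against 0.442% of all events tested) and 2 of the 3 calls of 54 between GFP ASO and siCtrl input (5.56%, against 0.476%), all lower in the input. Its untranslated exon 2 of 59 bases had levels of 1, 1 and 0.969 in siCtrl2, 0.972, 0.991 and 0.942 in GFP ASO, and 0.125 and 0.170 in siCtrl input, where it rested on 18 and 9 reads. The second event uses a longer form of the same exon (79 bases) and the same reads in large part. The differences of -0.842 and -0.821 (quasi-binomial adjusted p = 0.043 and 0.045) were not called without either input library (0.52 and 0.14, then 0.76 and 0.31), without any one siCtrl2 library (0.25 to 0.37) or without GFP ASO library 2 (0.15). Over all settings the adjusted p ran from 0.024 to 0.52 and from 0.0051 to 0.76.

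Among 19 genes of cell death and stress, 7 had 9 shared events, of which 2 were mostly included, 3 intermediate and 2 mostly skipped. MDM4 exon 6, whose skipping gives a short form of this p53 regulator, had 0.141, 0.157 and 0.0809 in siCtrl2, 0.478, 0.705 and 0.407 in GFP ASO, and 0.478 and 0 in siCtrl input, at 14 to 94 reads per library. The siCtrl2 and GFP ASO libraries did not overlap, but the difference of 0.403 was not called (quasi-binomial adjusted p = 0.12). An NMD exon of BCL2L1 had set means of 0.0773 ± 0.0276 (SD, n = 3), 0.0535 ± 0.0157 (SD, n = 3) and 0.0735 ± 0.0339 (SD, n = 2), and BID exon 3 had 0.798 ± 0.218, 0.798 ± 0.158 and 1, with no more than 29 reads in any siCtrl2 or input library. The SAT1 event was the only call, 1 of 9 between siCtrl2 and siCtrl input (11.1%, against 0.442% of all events tested), and 0 of 33 between siCtrl2 and GFP ASO and 0 of 11 between GFP ASO and siCtrl input were called by the quasi-binomial test or by limma, with 2 and 1 at an unadjusted p under 0.05. Of 21 genes listed as markers of other cell types, only LYZ had shared events, 2 in all, both mostly included and neither called, with 0 at an unadjusted p under 0.05 by the quasi-binomial test.

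**Figure D5:**
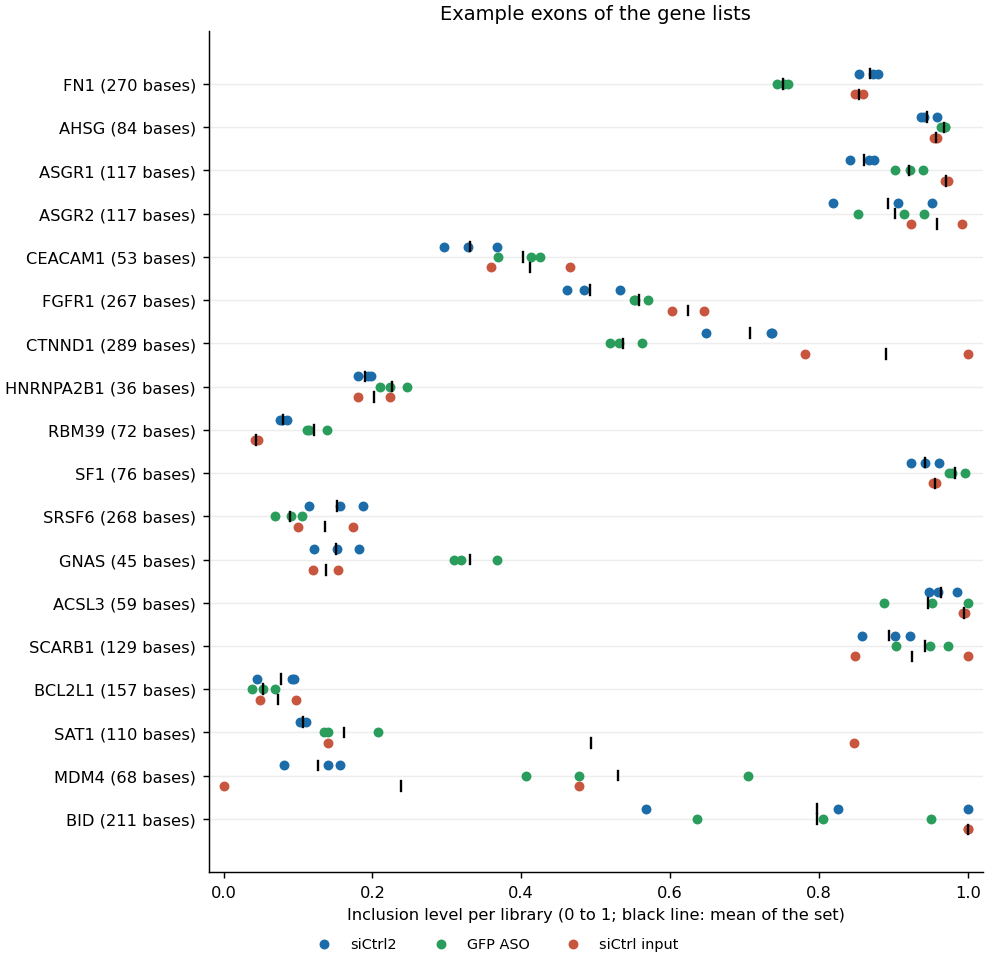
Inclusion level (x axis, 0 to 1) in each control library, 1 point per library, for up to 4 exons of each gene list with the most reads, in the order hepatocyte, epithelial and mesenchymal switches, splicing factors, metabolism and cell death, with the mean of each set as a black line and exon length in brackets. GNAS is shown for the event with the TG acceptor. The hepatocyte exons drawn lie at 0.744 or above, but FN1 EDB, which is not drawn, had levels of 0.0443 to 0.124. The exons drawn for the epithelial and mesenchymal switches spread from 0.296 to 1. The input libraries are split for SAT1 and MDM4.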

How the data were processed

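RNA of HepG2 cells from 3 control groups was sequenced in 8 libraries. As the study's methods state, the authors trimmed reads with Cutadapt, aligned them to hg38 with HISAT2 and counted skipped-exon events with rMATS from junction reads. Versions, annotation release and duplicate removal are not given in the sources used here. The deposited tables gave inclusion and skipping counts per event as lists, 1 whole number per control library, without replicate numbers, so a library is named by its position in its list. Not used were 6 deposited columns of inclusion levels and the columns of the authors' own comparisons, which held p-values, false discovery rates and differences in inclusion level.

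Events were matched and filtered as given in the report, and levels computed from the counts (Python 3.11.15, pandas 2.3.3, numpy 2.4.6, scipy 1.17.1). The depth, 910779 to 13189400 junction reads per library, counts reads, not molecules. Pairs of control sets were compared event by event with a quasi-binomial F test, two-sided, dispersion moderated across events with limma 3.58.1 in R 4.3.3, on a trend over the rank of information from events with information of at least 5, and Benjamini-Hochberg adjustment over all events of a pair. Information is reads per library times the inclusion share times the skipping share. Summaries per library were compared by exact two-sided permutation tests without further adjustment. The test was checked on simulated data. Comparisons between sets share libraries of the set they have in common.

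Exon annotation came from GENCODE release 44 and sequence from hg38, and coordinates count from 1. The members, gene lists and named events were chosen with earlier results of these data known. Named were, per comparison, up to 6 called events with the smallest p, a difference of at least 0.1 and no overlap, then the 8 intermediate (0.2 to 0.8) and 5 mostly skipped events with the most reads, and per list up to 4 events by reads, preferring levels from 0.05 to 0.95 in at least 1 set. Some exons that this rule names are not reported here. Called events of the lists and switches across the whole scale were named after their values were seen.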

Additional observations from a re-analysis of the deposited data

How the results depend on the processing

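Called events numbered 77 (GFP ASO against siCtrl2), 18 (siCtrl input against siCtrl2) and 22 (siCtrl input against GFP ASO). With limma on the log2 odds, with or without a variance trend, they numbered 0, 0 and 0. With the larger of the shared and the own dispersion, chosen after seeing the data, they numbered 41, 9 and 8. With all 8 libraries in 1 fit, over the 3885 shared events, they were 125 for GFP ASO against siCtrl2 and 63 for siCtrl input against GFP ASO, and at an adjusted p under 0.05 the latter were 12. Leaving out 1 library gave 22 to 69, 4 to 13 and 10 to 21. GFP ASO against siCtrl2 gave 48, 22 and 37 without siCtrl2 library 1, 2 or 3, and siCtrl input against siCtrl2 gave 8, 4 and 7 without these and 7 without siCtrl input library 1. A set left with 1 library was assumed to vary like the other. The counts moved by less than 1.5 times with a mean of 20 or more reads, no filter, or 1 event per exon. siCtrl input against GFP ASO gave 10 without GFP ASO library 1 or 2 or siCtrl input library 2. The named events kept their call in 154 of 252 other settings and in 142 of 209 with a library left out, and none reversed. No paired analysis was possible because the columns carry no replicate numbers.

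The difference of siCtrl input from siCtrl2 in mean level was -0.000583 over the 3174 events with 10 or more reads in every library, chosen after seeing the data, -8.53e-06 when these were thinned, -0.00293 without length scaling, and -0.00253 to 0.00339 over the left-out libraries (-0.000206 without siCtrl2 library 2, -0.00253 without siCtrl input library 2). The share of mostly included events in siCtrl input was -0.903 percentage points from GFP ASO with 20 or more reads, -1.07 without length scaling, -0.646 over the 3174 events, and -0.689 to 1.87 over the left-out libraries, the lowest without siCtrl input library 2. Thinned skipping shares of siCtrl input were 0.261 above siCtrl2 and 1.84 above GFP ASO, and over the same events with all reads they were at -2.18 and -1.12. In 94 of 102 recomputations with another setting, and 117 of 120 with a library left out, the summaries per library kept their direction.

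The mean absolute difference between libraries, main values 0.0859 (siCtrl2 and GFP ASO), 0.122 (siCtrl2 and siCtrl input) and 0.117 (GFP ASO and siCtrl input), was 0.0687, 0.0952 and 0.0910 with 20 or more reads, 0.104, 0.151 and 0.145 without the filter, and 0.0746, 0.107 and 0.103 without length scaling. Over the 3174 events with all reads it was 0.0729, 0.103 and 0.0981, and thinning these events raised it to 0.0973, 0.115 and 0.113. With a library left out the ranges were 0.0844 to 0.0878, 0.118 to 0.128 and 0.114 to 0.122. Depth limits the input set most, and at 10 to 20 reads per library in the shallowest set, the set means differed by a mean of 0.0998 to 0.167.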
